A study of Mus musculus with 3 samples.

Results

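Adventitial fibroblasts are connective tissue cells that lie around vessels, ducts and organ borders. Here they are 498 single-cell barcodes of mouse pancreas, of 36630 barcodes that passed the filters. They were chosen on their own counts. A barcode had to carry at least 8 UMIs (unique molecular identifiers, each counted as 1 captured RNA molecule) of Col1a1, Col1a2, Col3a1, Dcn, Clec3b, Dpt and Gsn, spread over at least 4 of these genes. It also needed at least 2 UMIs of Pi16, Mfap5 and Dpp4 together, at most 1 UMI of the mural genes Rgs5 and Myh11, and at most 1 UMI of the endothelial genes Pecam1 and Cdh5. Of 1026 barcodes that met the fibroblast and exclusion criteria, 341 had 0 UMIs of Pi16, Mfap5 and Dpp4. These 341 marker-negative fibroblasts are the comparison population, and 187 barcodes with exactly 1 such UMI belong to neither. The name rests on transcripts alone, since no position in the tissue was measured.

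Fibroblasts of many organs divide into an adventitial population that carries Pi16 and Dpp4 and a parenchymal population that lies among the functional cells of the organ. The adventitial cells are known for fibrillin microfibrils, secreted protease inhibitors and hyaluronan, and are often described as a reserve from which other fibroblasts arise. Pi16 encodes a secreted peptidase inhibitor, Mfap5 a microfibril protein, and Dpp4 a membrane peptidase that cleaves incretin hormones and chemokines.

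The study set sedentary against treadmill-trained diabetic mice, with 1 library of dissociated pancreas per group and no replicate library. One library is labelled sedentary with no treatment (none), and no source used here gives the genotype, strain or age of its mice. The diabetic sedentary library and the diabetic exercise library come, by the series description, from male db/db mice. These carry a mutation of the leptin receptor throughout the body and become obese and diabetic. Training of the exercise group began at 6 weeks of age. How many animals were pooled into a library is not stated. Values below are given in the order none, diabetic sedentary, diabetic exercise.

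The adventitial barcodes numbered 148, 230 and 120, with 779876, 1187011 and 674615 UMIs in all and medians of 4603.5, 3894.5 and 4856.5 UMIs per barcode. The marker-negative fibroblasts numbered 97, 178 and 66 and were shallower, with medians of 3335, 3077 and 2438.5 UMIs. Acinar transcripts were present in every library's fibroblasts. The 32 acinar markers held a median of 39.5%, 23.1% and 19.5% of the UMIs of an adventitial barcode, against 51.2%, 31.5% and 36.7% of a marker-negative one. Mitochondrial genes held a median of 0.937%, 3.35% and 4.06% in adventitial barcodes. Libraries shared 32 to 61 deposited barcode sequences pairwise, and 0 among adventitial barcodes. With 1 library per group, every difference between groups is a difference between libraries, and intervals on such ratios cover counting error only. CPM (the UMIs of a gene scaled to a common library total) values are scaled over 6 sums for adventitial against marker-negative fibroblasts and over the 3 adventitial sums between groups, so they differ slightly between these comparisons.

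Mfap5 was the gene that most often admitted a barcode. The values in this paragraph describe the selection and test nothing. Mfap5 (chr6:122505845-122529290, plus strand, GRCm38) was detected in 95.9%, 93.0% and 97.5% of adventitial barcodes. Pi16 (chr17:29317680-29330593, plus strand) was detected in 51.4%, 59.1% and 70.8%. Thinned to 1000 UMIs per barcode, with 0, 5 and 3 shallower barcodes left out, the shares with Pi16 were 27.0%, 35.1% and 47.0%. Dpp4 (chr2:62330073-62412231, minus strand) was detected in 41.9%, 33.0% and 40.8%. All 3 genes occurred together in 123 barcodes, Pi16 and Mfap5 without Dpp4 in 153, and Mfap5 without the other two in 146. Dpp4 without the other two occurred in 4 barcodes. In acinar-rich barcodes, which should lack these transcripts, each gene was detected in 0.376% to 1.03%, at median depths of 4207, 5664 and 1951 UMIs. At the threshold, barcodes with exactly 2 UMIs of the 3 genes numbered 27, 62 and 20 and carried medians of 61, 103.5 and 110 fibroblast-gene UMIs. Those with 1 UMI numbered 59, 86 and 42 and carried 66, 81.5 and 74.5. Clec3b, which encodes tetranectin and is also an adventitial marker, was part of the fibroblast criterion, and its CPM was 1176, 1136 and 1033 in adventitial and 682, 851 and 1079.6 in marker-negative fibroblasts.

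A minority of the selected barcodes carried mesothelial transcripts, those of the epithelium that covers the organ. Barcodes with at least 2 UMIs of Upk3b, Upk1b, Lrrn4 and Msln numbered 19 of 148, 5 of 230 and 6 of 120. Pi16 was found in 1 of these 30, and in 296 of the 468 other adventitial barcodes. Results that moved without them are given below also in that form. This alternative, and that of members with at least 6 UMIs of Pi16, Mfap5 and Dpp4, were added after seeing the data.

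The 18 adventitial markers that took no part in the selection followed the number of Pi16, Mfap5 and Dpp4 UMIs, mostly at its upper end. They include Cd248 (endosialin), Sema3c (a secreted guidance factor), Ackr3 (a chemokine-scavenging receptor) and Fbn1 (fibrillin 1). Outside acinar markers and mesothelial-marked barcodes, their summed level in the none library was 21.1 UMIs per 10000 at 0 UMIs of the 3 genes, 34.1 at 1, 70.2 at 2, 72.9 at 3 to 5 and 171.2 at 6 or more. In the diabetic sedentary library the same sums were 20.5, 31.7, 38.1, 36.4 and 102.6, and in the exercise library 20.2, 31.2, 38.0, 32.0 and 117.4. Levels at 2 UMIs and at 3 to 5 UMIs were close to each other, and each library's highest level lay at 6 or more. In both diabetic libraries the levels at 2 and at 3 to 5 UMIs also lay near that at 1 UMI, which the selection excluded. Members at 2, 3 to 5 and 6 or more numbered 61, 77 and 87 in diabetic sedentary. In exercise they numbered 20, 23 and 71. The parenchymal markers ran the other way, from 107.6 at 0 UMIs to 42.6 at 6 or more in none, from 153.9 to 73.6 in diabetic sedentary and from 149.0 to 67.3 in exercise. At 1, 2 and 3 to 5 UMIs their sums were 143.1, 146.3 and 122.9 in diabetic sedentary and 130.7, 134.4 and 104.9 in exercise. Detection of Pi16 alone split the members in the same manner. With Pi16 the adventitial sum was 173.1, 95.9 and 110.5 per 10000, and without it 73.4, 35.1 and 29.3.

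**Figure D1:**
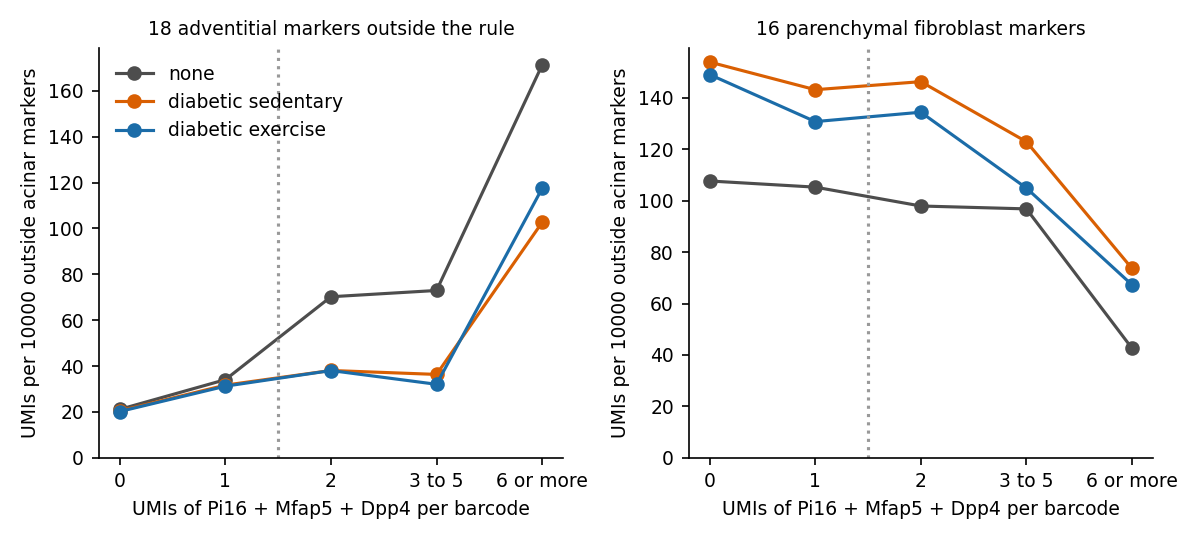
Summed UMIs of the adventitial and parenchymal marker lists per 10000 UMIs outside acinar markers, by the number of Pi16, Mfap5 and Dpp4 UMIs per barcode, 1 line per library, with mesothelial-marked barcodes left out. The dotted line is the selection threshold, and the adventitial sum is highest in each library at 6 or more UMIs (171.2, 102.6 and 117.4).

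At the selection threshold, the share of fibroblasts that were adventitial could not be told apart between libraries beyond counting error. Their share of fibroblast barcodes was 48.7% (95% exact binomial interval 42.9 to 54.5), 46.6% (42.1 to 51.1) and 52.6% (45.9 to 59.3), and the intervals overlap. At a common depth of 1000 UMIs with at least 1 UMI of the 3 genes, the shares were 41.1% (35.5 to 46.8), 40.8% (36.4 to 45.4) and 50.7% (43.7 to 57.7). Members with at least 6 UMIs made up 24.7% (19.9 to 29.9), 17.8% (14.5 to 21.5) and 32.5% (26.4 to 39.0) of fibroblast barcodes. At that higher threshold the diabetic sedentary and exercise intervals do not overlap, so these shares differed beyond counting error. Depth per barcode also differs between libraries.

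Against marker-negative fibroblasts, the adventitial cells carried more RNA of many adventitial marker and hyaluronan genes and less of many parenchymal markers. Counts were summed per library and population, and each gene was tested with edgeR's quasi-likelihood test with the library as a block, so n = 3 libraries. Of 8715 genes tested outside the 14 used for selection, 285 (3.27%) were higher and 233 (2.67%) lower at an adjusted p under 0.05, and the median log2 difference over all genes was -0.01. DESeq2 called 114 higher and 89 lower.

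Of the 18 adventitial markers outside the selection, 16 were higher and 0 lower, with a median log2 difference of 2.81. Fbn1, which builds the microfibrils that Mfap5 binds, had 1458, 724 and 1033 CPM in adventitial fibroblasts and 161, 144 and 96.6 CPM in marker-negative ones, so the populations did not overlap (log2 difference 2.89 ± 0.19 SE, adjusted p = 1.7e-12). Sema3c had 355, 132 and 314 against 18.3, 15.3 and 11.4 CPM (log2 difference 3.84 ± 0.30 SE, adjusted p = 1.0e-10). Anxa3, an annexin, had 324, 105 and 145 against 11, 11.9 and 5.68 CPM (log2 difference 3.97 ± 0.33 SE, adjusted p = 4.4e-10). The markers Cd248, Ackr3 and Ly6c1 were likewise separated in all 3 libraries, with log2 differences of 3.12 ± 0.22 (SE), 3.63 ± 0.31 and 3.61 ± 0.29. The membrane regulator of complement Cd55 had 208, 112 and 184 against 18.3, 22 and 17 CPM (log2 difference 2.90 ± 0.28 SE, adjusted p = 1.2e-08). Procr, the protein C receptor, was not called (log2 difference 0.16 ± 0.32 SE, adjusted p = 0.91), and neither was the cytokine Il33 (log2 difference 0.62 ± 0.27 SE, adjusted p = 0.24).

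**Figure D2:**
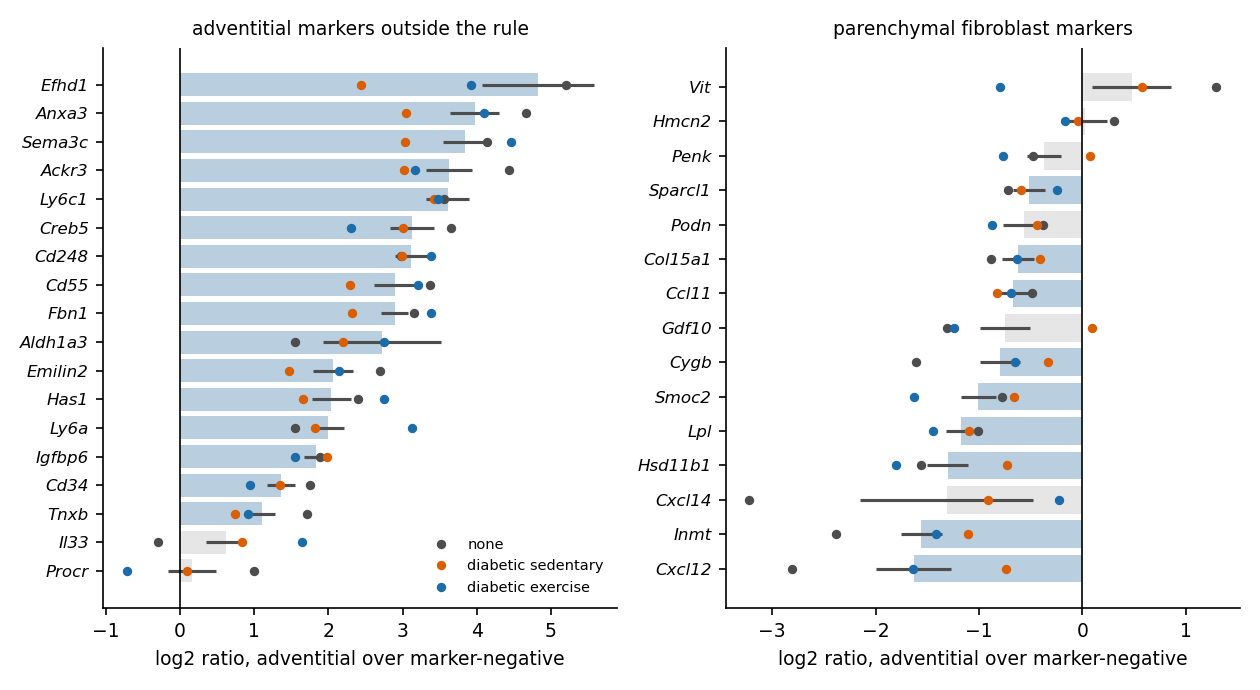
Log2 ratio of adventitial over marker-negative fibroblasts for adventitial markers outside the rule (left) and parenchymal markers (right). Bars are edgeR estimates ± SE, the SE being derived from the F statistic of the test on 3 libraries. Dots are single libraries, blue bars passed the adjusted p threshold and grey bars did not. Fbn1 stands at 2.89 and Lpl at -1.18.

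The elastic fibre and hyaluronan genes that were called were all higher in adventitial fibroblasts. Of 22 elastic fibre genes tested, 9 were higher and 0 lower, with a median of 0.60. Elastin itself, Eln, had 190.0, 149 and 569 CPM against 51.3, 56 and 73.9 (log2 difference 2.02 ± 0.25 SE, adjusted p = 1.2e-06), and the exercise library stood highest. Mfap4, another microfibril protein, had 78.2, 241 and 314 against 0, 30.5 and 34.1 CPM (log2 difference 3.24 ± 0.30 SE, adjusted p = 4.0e-09). Efemp1 (fibulin 3) had 959.6, 381 and 742 against 183, 103 and 170.5 CPM (log2 difference 2.13 ± 0.18 SE, adjusted p = 4.3e-10). Fbln1, Fbln2, Lox and Ltbp1 of the same list were not called. Of 11 hyaluronan genes tested, 8 were higher and 0 lower, at a median of 1.45. They were the synthases Has1 and Has2, the precursor enzymes Ugdh, Uap1, Ugp2 and Gfpt2, and the binding partners Vcan and Tnfaip6. Ugdh, which makes the UDP-glucuronate used for hyaluronan, had 348, 199 and 252 against 40.3, 79.7 and 22.7 CPM (log2 difference 2.23 ± 0.32 SE, adjusted p = 0.00036). The receptor Cd44 was not called (log2 difference -0.14 ± 0.32 SE, adjusted p = 0.92). DESeq2 called 5 hyaluronan genes. The fit without the library block called 4 hyaluronan and 4 elastic fibre genes, and totals without TMM factors 15 elastic fibre genes.

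Of 19 fibroblast activation genes tested, 10 were higher and 1 lower, with a median of 1.20. Fn1 (fibronectin) had 1402, 539 and 772 against 150.4, 32.2 and 28.4 CPM (log2 difference 3.79 ± 0.22 SE, adjusted p = 1.4e-13). Postn (periostin) had 112, 357 and 839 against 7.34, 3.39 and 34.1 CPM (log2 difference 5.20 ± 0.33 SE, adjusted p = 1.5e-12), with its levels far apart between libraries. The contractile gene Acta2 stood low in both populations, at 29.3, 38.3 and 42.6 against 25.7, 6.78 and 5.68 CPM (log2 difference 1.63 ± 0.45 SE, adjusted p = 0.022). The member that was lower was Thbs1, thrombospondin 1 (log2 difference -0.76 ± 0.15 SE, adjusted p = 0.00089). Among matrix enzymes and inhibitors, 8 of 30 were higher and 2 lower. Timp1, a metalloproteinase inhibitor, had 74, 143 and 166 against 11, 13.6 and 11.4 CPM (log2 difference 3.34 ± 0.31 SE, adjusted p = 3.6e-09). Pcolce2, an enhancer of collagen processing, had 237, 85.8 and 195 against 29.3, 3.39 and 22.7 CPM (log2 difference 3.40 ± 0.31 SE, adjusted p = 2.8e-09). The lower genes were the plasminogen activator Plau and the secreted protease Htra3. Of 12 collagen genes outside the rule, 6 were higher and 0 lower, Col14a1 among them (log2 difference 1.28 ± 0.19 SE, adjusted p = 3.0e-05). DESeq2 called 6 activation genes and 3 matrix enzyme genes higher. The fit without the block called 2, 3 and 1 of the activation, enzyme and collagen genes higher, and totals without TMM factors 15 enzyme and 11 collagen genes.

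The 12 largest positive differences under the naming rule included several genes almost missing from marker-negative fibroblasts. Krtdap, a keratinocyte secreted protein, had 75 UMIs in adventitial and 0 in marker-negative fibroblasts, at least 8.54-fold higher against a floor of 3 UMIs over the group. Uchl1, a ubiquitin hydrolase known from neurons, had 61 against 0 UMIs (at least 6.94-fold), and the WNT antagonist Sfrp4 had 59 against 0 (at least 6.71-fold). Tmem100, a membrane protein tied to BMP signalling, had 267 against 1 UMIs, a ratio of 91.2 with a counting interval of 16.2 to 3614. The others were Thbs4, Postn, Cthrc1, Efhd1, Col8a1, Opcml, Dact2 and Ccn3. Without the library block the calls of Thbs4, Postn, Efhd1, Col8a1 and Ccn3 ended, while their log2 differences were 4.64 to 5.86, against 4.39 to 5.26 with it. Without the none library the calls of Uchl1 and Sfrp4 ended, at adjusted p = 0.0603 and 0.0639, although neither had a UMI in the marker-negative fibroblasts of any library. Without the diabetic sedentary library that of Cthrc1 ended, at adjusted p = 0.0542 and a log2 difference of 6.25, against 5.07 with it.

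Signalling genes split between the populations. Of the insulin-like growth factor axis, the binding proteins Igfbp5 (1124, 599.6 and 1488 against 158, 71.2 and 165 CPM, log2 difference 3.02 ± 0.17 SE, adjusted p = 1.4e-13) and Igfbp6 (log2 difference 1.83 ± 0.15 SE, adjusted p = 4.4e-10) were higher. Igfbp6 was highest in mesothelial-marked members, at 67.7, 44.8 and 59.8 UMIs per 10000 outside acinar markers. With those barcodes left out it was 4.07, 4.07 and 4.19 at 0 UMIs of Pi16, Mfap5 and Dpp4. At 6 or more such UMIs it was 27.1, 21.0 and 13.1. Pappa, the protease that frees the growth factor from its binding proteins, was lower (26.5, 26.9 and 19.7 against 110.0, 96.7 and 102 CPM, log2 difference -2.03 ± 0.25 SE, adjusted p = 1.3e-06), as was the receptor Insr. Of 27 TGF-beta and BMP genes, 5 were higher and 2 lower. The secreted BMP antagonist Nbl1 had 317, 227 and 269 against 47.7, 23.7 and 73.9 CPM (log2 difference 2.66 ± 0.25 SE, adjusted p = 6.6e-09), and the ligand Bmp4 had 60.1, 81.5 and 85.3 against 169, 185 and 210.2 CPM (log2 difference -1.30 ± 0.20 SE, adjusted p = 3.1e-05). The receptor Tgfbr2 was higher (log2 difference 1.42 ± 0.21 SE, adjusted p = 2.7e-05). Of 20 WNT genes, Sfrp2, Sfrp4 and the receptors Fzd1 and Fzd2 were higher and Rspo3, a WNT enhancer, was lower (log2 difference -1.18 ± 0.26 SE, adjusted p = 0.0042). Of 34 fibroblast transcription factors, Creb5 (log2 difference 3.13 ± 0.30 SE, adjusted p = 5.8e-09), Twist1 and Ebf2 were called, all higher.

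Parenchymal and lipid-related genes were lower in the adventitial cells. Of 15 parenchymal markers 9 were lower and 0 higher, with a median of -0.75. Lpl, lipoprotein lipase, had 799, 958 and 496 against 1606, 2047 and 1352 CPM (log2 difference -1.18 ± 0.14 SE, adjusted p = 9.9e-07). Inmt, a methyltransferase, had 68.4, 267 and 292 against 359, 575 and 778 CPM (log2 difference -1.56 ± 0.19 SE, adjusted p = 2.4e-06). Hsd11b1, which regenerates active glucocorticoid, had 102, 296 and 122 against 301, 490.0 and 426 CPM (log2 difference -1.30 ± 0.20 SE, adjusted p = 3.1e-05). The chemokine Cxcl12 passed narrowly (log2 difference -1.63 ± 0.36 SE, adjusted p = 0.0496), and its relative Cxcl14 did not pass (log2 difference -1.31 ± 0.84 SE, adjusted p = 0.69). Of 21 adipogenic and lipid genes 5 were lower and 0 higher, with a median of -0.74. Apoe, the lipoprotein carrier, had 230.5, 819 and 561 against 1401, 2228 and 1307 CPM (log2 difference -1.73 ± 0.23 SE, adjusted p = 0.00066). The log2 difference was -1.89 after subtraction of estimated acinar RNA and -1.78 without mesothelial-marked barcodes, so it was no smaller, but the call ended, at adjusted p = 0.11 and 0.061. It ended without the block too, at -1.62 and adjusted p = 0.0849. Dlk1, a membrane protein that restrains adipogenesis, had 8.38, 135 and 21.9 against 62.4, 402 and 85.2 CPM (log2 difference -1.83 ± 0.24 SE, adjusted p = 4.0e-06). DESeq2 called 5 parenchymal and 3 lipid genes lower, totals without TMM factors 4 and 3, and the fit without the block 1 and 0. Beside these genes, 29 of 32 acinar markers and 9 of 12 mitochondrially encoded genes were also lower in adventitial barcodes. After subtraction of estimated acinar RNA, 252 genes were higher and 148 lower. Of these, 226 and 144 had been called the same way before the subtraction.

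Of 20 immediate early genes 7 were lower in the adventitial cells, namely Egr1, Fosb, Jun, Ier2, Dusp1, Btg2 and Zfp36, with a list median of -0.45. Btg2, an antiproliferative gene, had 751, 820.0 and 180.4 against 1302, 1090.3 and 472 CPM (log2 difference -0.82 ± 0.16 SE, adjusted p = 0.00078). DESeq2, edgeR on totals without TMM factors and edgeR without the block each called 0 of the 20, with 7, 1 and 0 lower at an unadjusted p under 0.05, against 11 with TMM factors and the block. edgeR called 2 without the none library, 2 without the diabetic sedentary library and 4 without mesothelial-marked barcodes. Mesothelial markers were higher for 7 of 10. Once mesothelial-marked barcodes were left out, edgeR could test 4 of them and called 0, with 0 at an unadjusted p under 0.05.

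Between the sedentary libraries, adventitial identity genes stood lower in the diabetic mice and most parenchymal markers and imprinted genes stood higher. With 1 library per group these differences have no replicate check. Of 6159 genes with at least 30 UMIs over both libraries, 374 (6.07%) were more than 2-fold higher and 283 (4.59%) more than 2-fold lower in diabetic sedentary, and the median log2 ratio was -0.02. Of 17 adventitial markers measured, 15 were lower and 6 of these past 2-fold, with a median of -0.99. In what follows a ratio is that of diabetic sedentary over none, with its 95% counting interval. Sema3c had 400.2, 151 and 359 CPM, a ratio of 0.378 (0.311 to 0.458). Fbn1 had 1645, 830.3 and 1181 CPM, a ratio of 0.505 (0.463 to 0.551). Ackr3 had 314, 118 and 261 CPM, a ratio of 0.376 (0.301 to 0.468). For each of these the diabetic sedentary library was the lowest of the 3. In the members with at least 6 UMIs the list median was -0.76 and 15 of 17 were lower. In marker-negative fibroblasts, where 9 of the genes could be measured, it was -0.17. Acinar markers were also lower in these adventitial cells for 28 of 31, at a median of -1.11, and mitochondrially encoded genes higher for 10 of 11, at 1.35. After subtraction of estimated acinar RNA the adventitial list median was -1.10. Without mesothelial-marked barcodes it was -1.12, with 10 genes past 2-fold lower.

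Parenchymal markers were higher for 14 of 15, 7 past 2-fold, with a median of 0.79, and marker-negative fibroblasts had a median of 0.62. Cxcl14 had 85.1, 794 and 717 CPM (ratio 9.33, interval 7.09 to 12.5). Inmt had 77.2, 307 and 334 CPM (ratio 3.97, interval 2.94 to 5.46). Apoe, a lipid gene outside the parenchymal list, had 260.0, 939 and 641 CPM (ratio 3.61, interval 3.07 to 4.28). Without mesothelial-marked barcodes 10 of 15 parenchymal markers were higher, 7 past 2-fold, at a median of 0.55. Of 18 activation genes 14 were higher and 10 past 2-fold, at a median of 1.12. Their summed level was 6178 and 6522 CPM in none and diabetic sedentary. After thinning to 1000 UMIs, 6 of them could be measured, 4 higher, at a median of 0.22, and in marker-negative fibroblasts 7 had a median of 0.40. Thbs2, thrombospondin 2, had 22.1, 198 and 112 CPM (ratio 9.0, interval 5.26 to 16.7). Tnc, tenascin C, had 0, 63 and 73 UMIs, at least 10.8-fold higher in diabetic sedentary against a floor of 3 UMIs in the none library. Fn1 stood lower in the diabetic library, with 1582, 619 and 882 CPM (ratio 0.391, interval 0.356 to 0.43). The growth factors Ptn and Mdk, which are related heparin-binding proteins, stood far apart between these libraries. Ptn had 25.2, 626 and 349 CPM (ratio 24.8, interval 15.2 to 43.7), and Mdk had 3, 132 and 44 UMIs, a ratio of 22.7 (7.6 to 112). The acute phase gene Saa3 had 0, 388 and 4 UMIs, but 332 of the 388 lay in 1 barcode.

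Hyaluronan genes, higher in adventitial than in marker-negative fibroblasts, stood lower in diabetic sedentary for 9 of 11, with 2 past 2-fold and a median of -0.63, and for 7 of 11 at a median of -0.28 without TMM factors. In marker-negative fibroblasts the median was -0.04. Tnfaip6, which links hyaluronan to inter-alpha-trypsin inhibitor, had 295, 94.3 and 48.7 CPM (ratio 0.32, interval 0.252 to 0.406). Heat shock genes were lower for 16 of 17, 5 past 2-fold, at a median of -0.68, and marker-negative fibroblasts had a median of -0.42. The nearly identical genes Hspa1a and Hspa1b, between which reads may have been split, had 422, 61.8 and 140.0 and 388, 57.7 and 212 CPM, with ratios of 0.146 (0.112 to 0.189) and 0.149 (0.113 to 0.195). All other kept barcodes of the libraries had 33.0, 13.4 and 75.8 CPM of Hspa1b, so the diabetic sedentary library was lowest there too. Ptgs2, which makes prostaglandins, had 209.6, 31.7 and 28.7 CPM (ratio 0.151, interval 0.103 to 0.218). The mesothelial genes Lgals7, Lrrn4, Upk3b and Upk1b were among the 10 lowest ratios under the naming rule, at 0.126 to 0.166, beside the 19, 5 and 6 mesothelial-marked barcodes. Cav1 was among them too, at 0.168 (0.115 to 0.241), and at a log2 ratio of -0.69 without those barcodes.

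A set of imprinted genes, which are expressed from 1 parental copy and are active in growing tissue before birth, was highest in the diabetic sedentary library. This list was added after its values were seen. Of 15 measured, 13 were higher than in none and 9 past 2-fold, at a median log2 ratio of 1.39, and 13 were lower in exercise than in diabetic sedentary, 7 past 2-fold, at a median of -0.87. Both ratios contain the diabetic sedentary library. For each gene the ratio of diabetic sedentary over none is given first and that of exercise over diabetic sedentary second. Mest (chr6:30723547-30748465, plus strand, GRCm38) had 31.5, 703 and 132 CPM, with ratios of 22.3 (14.3 to 36.7) and 0.189 (0.153 to 0.231). The noncoding RNA H19 (chr7:142575529-142578143, minus strand) had 15.8, 342 and 83.7 CPM, with ratios of 21.7 (11.7 to 45.5) and 0.245 (0.187 to 0.318). Peg3, a zinc finger gene, had 22.1, 251 and 61.2 CPM (ratios 11.4, interval 6.69 to 21.1 and 0.244, interval 0.176 to 0.33). Zim1, its neighbour, had 0, 109 and 15 UMIs, at least 18.8-fold higher in diabetic sedentary than in none. The cell cycle inhibitor Cdkn1c had 189, 497 and 120.0 CPM (ratios 2.63, interval 2.16 to 3.22 and 0.241, interval 0.193 to 0.30). Meg3, a noncoding RNA, stayed high in exercise, with 451, 972 and 845 CPM. In marker-negative fibroblasts the list medians were 0.93 and -0.11, and in members with at least 6 UMIs 1.31 and -1.20.

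Counted per barcode, these transcripts differed between libraries in how often several occurred together. At least 3 of Mest, H19, Dlk1, Peg3, Plagl1 and Zim1 were detected in 0 of 148 none barcodes (exact interval 0 to 2.46%), in 47 of 230 (20.4%, 15.4 to 26.2) diabetic sedentary barcodes, and in 8 of 120 (6.67%, 2.92 to 12.7) exercise barcodes. The 6 genes were picked after the values were seen and had 0 to 20 UMIs each in the none members. This contrast and its intervals are therefore a description. The imprinted genes Cdkn1c, Grb10 and Meg3 were not counted here. They were detected in 27.0%, 30.4% and 55.4% of none barcodes and in 43.5%, 53.0% and 73.5% of diabetic sedentary ones. In exercise barcodes they were detected in 30.8%, 50.8% and 90.0%, so Meg3 was detected most often in exercise. Thinned to 1000 UMIs, Meg3 was detected in 23.6% of none, 43.1% of diabetic sedentary and 64.1% of exercise members. The 47 barcodes were chosen for the 6 genes, so their share of the same UMIs is raised by the choice and is given as a description. It ran from 116 of 190 UMIs for Dlk1 to 108 of 109 for Zim1 among the diabetic sedentary members. Their median depth was 5261 UMIs against 3712 in the other members, and 23 of the 88 diabetic sedentary members with at least 6 UMIs were among them. Thinned to 1000 UMIs, at least 1 of the 6 genes was detected in 4.05%, 45.3% and 19.7% of members, and at least 3 in 0, 18 and 1 barcodes. In acinar-rich barcodes at least 1 was detected in 1.86%, 2.83% and 1.18%, and at least 3 in 0 of each library. Mest alone was detected there in 0.0485%, 0.616% and 0.169%. Mest stood at 0.0769, 1.4 and 1.38 CPM in all other kept barcodes, and H19 at 0, 0.494 and 0.218 CPM. Dlk1 and Zim1 were also higher there in both diabetic libraries than in none, whereas Plagl1 was lowest in diabetic sedentary. For Mest, H19, Dlk1 and Zim1 the rise was therefore not limited to adventitial barcodes. These CPM values mix cell types and carry no TMM factors.

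**Figure D3:**
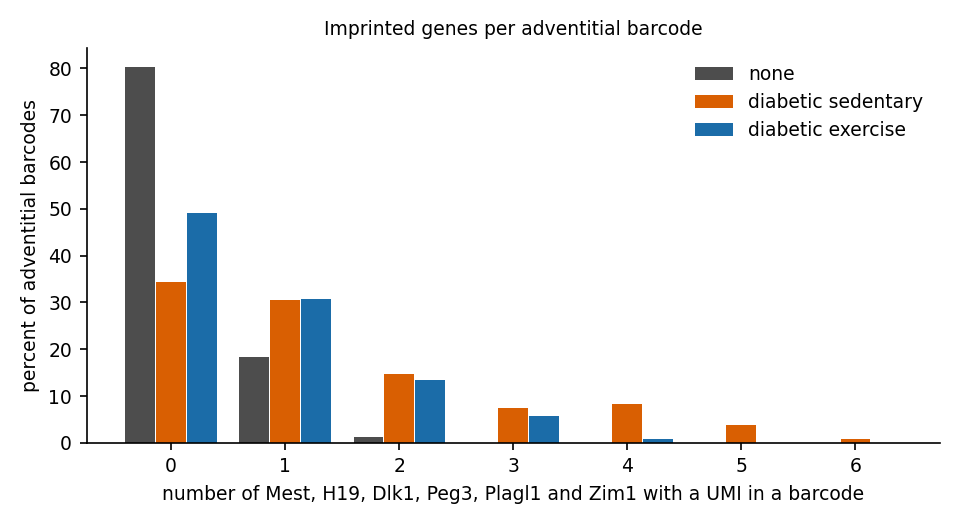
Percent of adventitial barcodes in each library by how many of the 6 imprinted genes Mest, H19, Dlk1, Peg3, Plagl1 and Zim1 were detected. Barcodes with 3 or more make up 0%, 20.4% and 6.67% in none, diabetic sedentary and diabetic exercise. The 6 genes were picked after the values were seen.

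In the exercise library the adventitial fibroblasts carried less immediate early RNA than in the diabetic sedentary library, and more of a few elastic fibre and collagen genes. Of 6586 genes measured, 205 (3.11%) were more than 2-fold higher and 210 (3.19%) more than 2-fold lower in exercise, with a median log2 ratio of -0.00. Ratios from here on are those of exercise over diabetic sedentary unless stated. Adventitial markers were higher for 14 of 18, 3 past 2-fold, at a median of 0.48. The members differed in make-up, since 74 of 120 in exercise and 88 of 230 in diabetic sedentary had at least 6 UMIs of Pi16, Mfap5 and Dpp4. At 2, 3 to 5 and 6 or more such UMIs the summed level per 10000 was 38.0, 32.0 and 117.4 in exercise. In diabetic sedentary it was 38.1, 36.4 and 102.6, so it was higher in exercise only at 6 or more. Sema3c had a ratio of 2.37 (1.97 to 2.87) and Fbn1 of 1.42 (1.3 to 1.56), in the direction opposite to diabetic sedentary over none, and both ratios use the diabetic sedentary library. In marker-negative fibroblasts, where 8 of the adventitial markers could be measured, the list median was -0.08. Adipogenic and lipid genes were lower for 12 of 15, 4 past 2-fold, at a median of -0.59, and marker-negative fibroblasts had a median of -0.57. Cebpd, a factor of early adipogenesis, had 989, 1333 and 546 CPM (ratio 0.41, interval 0.368 to 0.456). Apod, apolipoprotein D, had 22.1, 308 and 85 CPM (ratio 0.276, interval 0.21 to 0.358). Genes of collagen secretion and folding were lower for 27 of 34, with 0 past 2-fold and a median of -0.34, and for 20 of 34 at a median of -0.14 without TMM factors. In marker-negative fibroblasts the median was -0.34 as well.

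Immediate early genes are transcribed within minutes of a stimulus, and many carry cyclic AMP response elements (the motif TGACGTCA or its core TGACG) close to their start. To show what such starts look like, the 150 bases upstream of the RefSeq starts of 3 of them are printed with that of Hspa1b, whose family is known for heat shock elements. Capitals mark TGACG on either strand, alone or within TGACGTCA, and in Hspa1b a match to GAANNTTC. The sequences are RefSeq's on GRCm38.p6, in the direction of transcription.
Fos (chr12:85473740-85473889, plus strand): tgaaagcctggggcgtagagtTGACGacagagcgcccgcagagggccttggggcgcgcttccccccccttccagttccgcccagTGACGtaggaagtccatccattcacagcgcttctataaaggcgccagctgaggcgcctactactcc
Nr4a1 (chr15:101266696-101266845, plus strand): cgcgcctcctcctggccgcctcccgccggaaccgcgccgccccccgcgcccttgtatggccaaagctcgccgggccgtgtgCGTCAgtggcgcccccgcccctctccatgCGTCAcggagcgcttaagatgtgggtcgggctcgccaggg
Dusp1 (chr17:26508473-26508622, minus strand): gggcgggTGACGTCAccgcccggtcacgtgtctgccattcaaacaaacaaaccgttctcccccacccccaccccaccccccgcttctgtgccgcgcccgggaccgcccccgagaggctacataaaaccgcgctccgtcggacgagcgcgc
Hspa1b (chr17:34959239-34959388, minus strand): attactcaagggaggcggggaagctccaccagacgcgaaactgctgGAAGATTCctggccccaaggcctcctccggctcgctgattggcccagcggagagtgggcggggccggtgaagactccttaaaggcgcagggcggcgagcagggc
Motifs were searched within 250 bases upstream of the start. Promoters of 1 chromosome were left out of all these counts, and Egr1, Egr3 and Ier2 were not among the 17 immediate early genes searched. TGACG on either strand was found in 11 of the 17, in 6 of 13 heat shock genes and in 19.8% of 27025 genes. The full TGACGTCA, which contains TGACG, was found in 3 of the 17, in 0 of the 13 and in 1.77% of all. GAANNTTC, which reads the same on both strands, was found in 6 of 13 heat shock genes, in 1 of the 17 immediate early genes and in 7.73% of all. A match describes letters and not occupancy.

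Of the 20 immediate early genes 19 were lower in exercise, 15 past 2-fold, with a median log2 ratio of -1.32. Between the same libraries acinar markers were lower for 28 of 29, at a median of -0.70, and mitochondrially encoded genes higher for 10 of 12, at 0.32. Fos, a subunit of the AP-1 factor, had 1626, 2183 and 862 CPM in adventitial fibroblasts (ratio 0.395, interval 0.363 to 0.43). Its partner Jun had 1191, 1712 and 592 CPM (ratio 0.346, interval 0.313 to 0.383). For both, exercise was lowest and diabetic sedentary highest of the 3 libraries. Egr1, a zinc finger factor, had 2245, 2412 and 1309.8 CPM (ratio 0.543, interval 0.506 to 0.583). Btg2 had 848, 941 and 206 CPM, the lowest ratio among the better counted members of the list (ratio 0.219, interval 0.185 to 0.258), and the phosphatase gene Dusp1 had 734, 1054 and 484 CPM (ratio 0.459, interval 0.409 to 0.515). Nr4a3, an orphan nuclear receptor, had 45, 33 and 0 UMIs, at least 7.16-fold lower in exercise against a floor of 3 UMIs. The member that was higher was Egr3, with 21, 18 and 19 UMIs and a ratio of 1.62 (0.806 to 3.28).

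The same direction was found in members with at least 6 UMIs, where 17 of 17 measured genes were lower and the median was -1.25. Without mesothelial-marked barcodes the median was -1.23, and after subtraction of estimated acinar RNA -1.36. In marker-negative fibroblasts the median was -0.82. For Nr4a1 the ratio was 0.327 (0.262 to 0.406) in adventitial and 0.843 (0.609 to 1.15) in marker-negative fibroblasts, and these intervals do not overlap. For Fos the ratio was 0.395 (0.363 to 0.43) and 0.427 (0.361 to 0.503), with overlapping intervals. The difference between the populations has no replicate test. In all other kept barcodes Fos stood at 275, 480 and 642 CPM, Jun at 331, 346 and 389 CPM and Btg2 at 334, 307 and 202 CPM. These values mix cell types and carry no TMM factors, and acinar markers held 80.4%, 76.8% and 66.3% of those UMIs. In acinar-rich barcodes Fos was detected in 52.1%, 48.6% and 25.1%, and Nr4a1 in 10.5%, 8.84% and 3.24%. The median depths of these barcodes were 4207, 5664 and 1951 UMIs. Whether immediate early genes were lower in exercise outside fibroblasts was not tested.

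**Figure D4:**
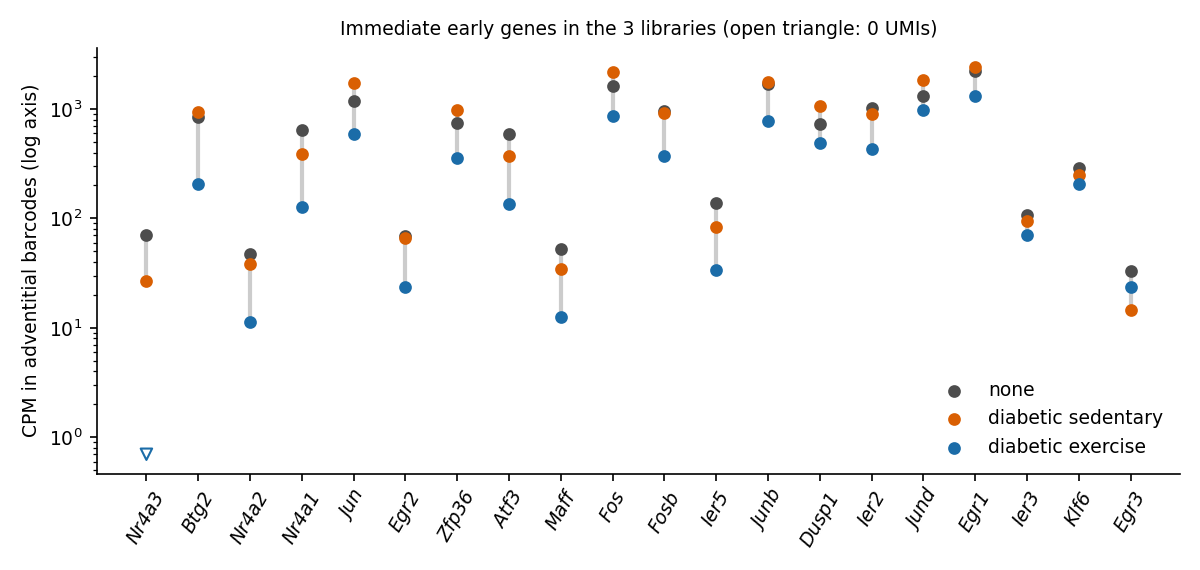
CPM of immediate early genes in adventitial fibroblasts of each library, on a log axis, 1 point per gene and library, with an open triangle for 0 UMIs. The exercise library is the lowest for 19 of 20 genes, Egr3 being the exception, and Fos stands at 1626, 2183 and 862.

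Heat shock genes did not move together between the diabetic libraries, with 9 higher and 8 lower in exercise and a median of 0.01. Hspa1b was higher (ratio 3.68, interval 2.77 to 4.93), whereas the co-chaperone gene Dnajb1 was lower, at 199, 124 and 35 CPM (ratio 0.281, interval 0.181 to 0.423). Of the cytokine list, Cxcl1 and Il6 were lowest in exercise. The neutrophil chemokine Cxcl1 had 728, 265 and 56.2 CPM (ratio 0.212, interval 0.152 to 0.29), and Il6 had 106, 56.9 and 13.7 CPM (ratio 0.242, interval 0.115 to 0.459). Adamts4, which cleaves versican and aggrecan, had 25, 101 and 1 UMIs.

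The 10 largest ratios in exercise under the naming rule were those of Chodl, Col8a1, Thbs4, Cpxm2, Eln, Hspa1b, Nkd2, Ccn2, Cav1 and Col12a1. Chodl, a membrane lectin, had 0, 10 and 110 UMIs (ratio 16.9, interval 8.85 to 36.2). Col8a1, a short-chain collagen of vessel walls, had 80.4, 23.6 and 327 CPM (ratio 13.9, interval 9.44 to 21.1). Thbs4, thrombospondin 4, had 22.1, 21.1 and 189 CPM (ratio 8.93, interval 5.86 to 14.1). Eln had 214, 171 and 649.9 CPM (ratio 3.81, interval 3.24 to 4.49), and in marker-negative fibroblasts its ratio was 1.42 (0.685 to 2.77). In all other kept barcodes Eln stood at 0.596, 3.23 and 14.3 CPM and Ccn2 at 1.67, 7.74 and 26.2 CPM, so exercise was highest there too. Nkd2 stood there at 0.154, 0.234 and 0.243 CPM. These values of other barcodes mix cell types and carry no TMM factors. Postn had 126, 409.8 and 959 CPM (ratio 2.34, interval 2.09 to 2.62). For Chodl, Col8a1, Thbs4, Eln and Postn the exercise library was highest, and Postn was also higher in diabetic sedentary than in none (ratio 3.25, interval 2.56 to 4.17). Spp1, osteopontin, had 77.2, 193 and 451 CPM, but 297 of its 361 UMIs in exercise came from 1 barcode.

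A small number of exercise barcodes held most UMIs of Eln, Postn and Col8a1. Barcodes with Thbs4 or Chodl numbered 2 of 148 (1.35%), 11 of 230 (4.78%, 2.41 to 8.4) and 18 of 120 (15%, 9.14 to 22.7). They were looked for after the values were seen, so their numbers are a description. Thinned to 1000 UMIs the shares were 1.35%, 1.78% and 9.4%, and in acinar-rich barcodes 0.0607%, 0.0106% and 0.162%. Pi16 was found in 2 of the 2 none barcodes, 7 of the 11 diabetic sedentary barcodes and 18 of the 18 exercise barcodes. The 18 exercise barcodes had a median depth of 7936 UMIs against 4429 in the other exercise members. They held 23.5% of the UMIs of the exercise members. Of the exercise UMIs of single genes they held 89.6% of Eln (466 of 520), 82.0% of Postn (629 of 767), 77.9% of Col8a1 (204 of 262) and 64.1% of Col12a1, but 21.5% of Ccn2. The 11 diabetic sedentary barcodes held 8.34% of their library's member UMIs, 37.1% of Eln and 46.8% of Postn.

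**Figure D5:**
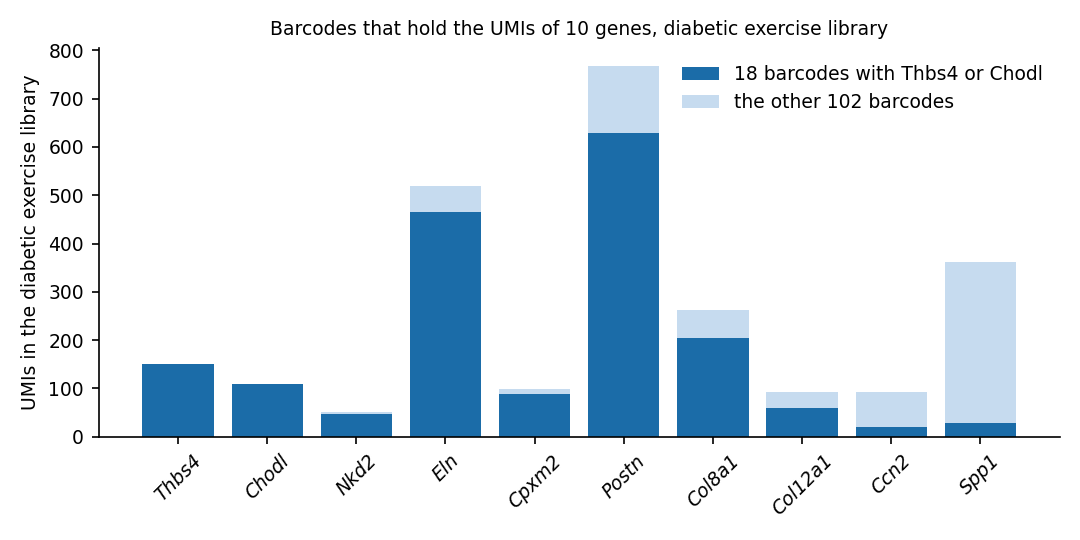
UMIs of 10 genes in the adventitial barcodes of the exercise library, split into the 18 barcodes with Thbs4 or Chodl (dark) and the other 102 (light). The dark part holds 466 of 520 Eln UMIs and 29 of 361 Spp1 UMIs.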

How the data were processed

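RNA of single cells of mouse pancreas was measured in 3 libraries built with a 10x Chromium 3-prime kit, per the labels' protocols. The authors deposited raw whole UMI counts for each gene in each barcode. They used Cell Ranger, whose version is 7.1.0 per the submitters' processing notes and 6.1.2 per the file headers. The alignment reference was not given in the sources used here. All 55450 deposited gene identifiers and symbols match GENCODE M21 (GRCm38), from which gene positions come. The libraries held 54128454, 80185752 and 45209034 UMIs (none, diabetic sedentary, diabetic exercise). The members and gene lists were chosen with earlier results of these data known.

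Filters required 500 UMIs and 200 genes per barcode and no more than 20% mitochondrial UMIs, which left 9169, 11599 and 15862. Scrublet (scanpy 1.11.5) called 0 doublets in each library by its automatic threshold and so did not work. No doublet was removed, and leaving out the top 5% by score is an alternative. Those barcodes numbered 3, 9 and 0 among adventitial and 15, 23 and 1 among marker-negative fibroblasts.

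UMIs were summed per library and population. Adventitial and marker-negative sums were compared with edgeR 4.0.16 (R 4.3.3) by its quasi-likelihood test with TMM factors, the library as block and Benjamini-Hochberg adjustment. The p-values measure the spread between 3 libraries, each of which holds both populations. Each SE given is the absolute log2 difference divided by the square root of the F statistic of that test. It is not computed directly from the values of the 3 libraries. DESeq2 1.42.0 was an alternative. On simulated counts of 8422 genes for this comparison, the fit recovered 97 of 100 genes changed 4-fold and 29 of 100 changed 2-fold, with 6 false calls among 8222 unchanged genes. The simulation gave every gene the same fixed dispersion and changed only better counted genes. It therefore does not measure the error rate of the calls in these data. Between libraries, CPM with TMM factors and ratios with exact conditional Poisson 95% intervals are given for genes with at least 30 UMIs over both libraries, without a test. A group at 0 UMIs was set to a floor of 3. Shares carry exact (Clopper-Pearson) intervals. Reads of the nearly identical Hspa1a and Hspa1b may be split between them.

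Of 41 gene lists, 1 (imprinted genes) was added after the values were seen. Genes named from the comparison of populations are the 12 largest and 12 smallest called differences with the same direction in all 3 libraries and at least 50 UMIs where higher. Between libraries they are the 10 largest and 10 smallest ratios with at least 30 UMIs in at least 10 barcodes and at least 50 CPM where higher. There the CPM also had to reach that of all other kept barcodes of the library. For the comparison of populations it had to reach a set share of that of all other kept barcodes. These picks therefore favour genes enriched in fibroblasts. Mitochondrial, ribosomal protein, haemoglobin, immunoglobulin, Xist, Y-linked, acinar marker and predicted genes were left out of them. From each list, the members with most UMIs and any past the call or past 2-fold could be named. Alternatives changed the scaling, filters, depth, doublets, member threshold, comparison population, acinar RNA and libraries. Python 3.11.15, numpy 2.4.6, scipy 1.17.1 and pandas 2.3.3 were used.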

Additional observations from a re-analysis of the deposited data

How the results depend on the processing

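Between adventitial and marker-negative fibroblasts, the counts of 285 genes higher and 233 lower moved with several choices, and no called gene was called in the other direction under any alternative run. DESeq2 gave 114 and 89, totals without TMM factors 854 and 112 (88.4% of calls higher against 55.0%, with the median of all genes shifted to 0.38), no library block 97 and 22, thinning to 1000 UMIs 115 and 121 of 2955 genes tested, and subtraction of acinar RNA 148 lower. Members with at least 6 UMIs gave 357 lower. Leaving out 1 library each gave 150 to 281 higher and 113 to 206 lower: 166 and 121 without none, and 150 and 113 without diabetic sedentary. In the no-filter fit and the acinar-subtracted fit, 62.7% and 63.0% of calls were higher, and without the block 81.5%. For diabetic sedentary over none, the 374 genes past 2-fold higher and 283 lower became 790 and 137 without TMM factors, 889 and 672 with at least 10 UMIs, and 130 and 66 after thinning. For exercise over diabetic sedentary, 205 and 210 became 364 and 125, 698 and 523, and 43 and 79. Without TMM factors the medians of all genes moved to 0.33 and 0.19. The share of fibroblasts that were adventitial was 41.1% (none) and 40.8% (diabetic sedentary) after thinning. It was 68.1%, 64.0% and 71.1% with at least 1 UMI, 39.8%, 34.0% and 43.9% with at least 3, 24.7%, 17.8% and 32.5% with at least 6, and 61.1% in exercise among barcodes with at least 2000 UMIs. Without mesothelial-marked barcodes the mesothelial list medians turned to 0.10 (from -2.20) and -0.21 (from 0.70), with 3 genes left to measure. Thinning leaves fewer genes to test; for the other changes the cause was not tested. Of 373 settings of the 24 named genes, 23 lost the call and 0 reversed. With 1 library per group, no difference between groups has a replicate check, and ratios near 1 of genes under about 30 UMIs were not detectable at this depth. The comparison of populations is paired within libraries by the block. Between the groups, no paired analysis was possible because each group has 1 library.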

Other observations

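Of 15 circadian genes tested, 3 were lower in adventitial than in marker-negative fibroblasts and 0 higher. Per3, Dbp and Tef were called by edgeR, with log2 differences of -1.22 ± 0.25 (SE), -1.13 ± 0.28 and -0.79 ± 0.23 and adjusted p of 0.0013, 0.0099 and 0.033. Dbp, a target of the clock, had 12.6, 30.5 and 56.9 CPM in adventitial and 58.7, 64.4 and 85.2 CPM in marker-negative fibroblasts.

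Of 21 cytokine and chemokine genes, 4 were higher in the adventitial cells (Ccl2, Ccl7, Cxcl2 and Ackr3) and 6 lower. The largest negative differences were Cxcl13 and Ccl21a, chemokines known from lymphoid stroma. Cxcl13 had 177 UMIs and Ccl21a 131 UMIs in marker-negative fibroblasts, all in the none library, and 0 in adventitial ones, so these calls rest on 1 library.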
